A study of Mus musculus with 18 samples.

Results

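The expression of 9 amino acid transporter genes was read from RNA-seq counts of Foxp3+ regulatory T cells (Tregs) in 18 mice. The genes are *Slc7a5*, *Slc3a2*, *Slc1a5*, *Slc1a4*, *Slc38a1*, *Slc38a2*, *Slc7a1*, *Slc7a6* and *Slc43a2*. They were chosen by name among the carriers of the T cell surface, with earlier results of these data known. All 9 were found among the 50600 genes of the count table. They passed the filter on low counts in both tissues, as did 16214 genes in all. Thymic CD25 KO Tregs came from 5 “cured” CD25cKO mice (CD25 flox/Foxp3-YFP/Cre) of 3–4 weeks, which had been given WT splenocytes as neonates, and thymic WT Tregs from 5 age-matched Foxp3/RFP mice. For splenic CD25 KO Tregs, 4 mice carried the alleles CD25 flox, Foxp3eGFP-Cre-ERT2 and R26Y, and 4 reporter controls gave the splenic WT Tregs, all injected with tamoxifen at an age of 7–10 weeks and analyzed 10–14 days later. All mice were on the C57BL/6 background. In both models Cre is driven from the *Foxp3* locus, so that *Il2ra*, which encodes CD25, is deleted in Foxp3-expressing cells, from thymic development onward in the first model and only after tamoxifen in the second. The thymic WT and CD25 KO mice carried different *Foxp3* reporter alleles, the cured hosts also held donor cells, and tissue, mouse model, age, tamoxifen and the date in the column names changed together between the thymus and the spleen.

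Amino acids are taken up by T cells through carriers of the solute carrier (SLC) families, each with its own range of substrates. Activated T cells need leucine and other large neutral amino acids, glutamine and arginine to grow and divide, and amino acids that reach the lysosome allow the kinase complex mTORC1 to be switched on. LAT1, encoded by *Slc7a5*, exchanges large neutral amino acids and reaches the cell surface only when joined to the heavy chain 4F2hc (CD98), encoded by *Slc3a2*. Cytokines such as IL-2, antigen receptor signals and the transcription factor MYC are known to raise transporter expression in activated T cells.

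Sequencing depth was 17239774 to 23993674 counts per thymic and 25258341 to 32639570 per splenic sample, so that 3 counts, taken as the limit of detection, corresponded to 0.174 CPM (counts per library size, scaled by TMM) or less. *Il2ra* had 681, 654, 537, 702 and 555 CPM in the 5 thymic WT mice and 107, 291, 99.0, 243 and 99.2 CPM in thymic CD25 KO mice 1 to 5. In the spleen it had 521, 473, 513 and 522 CPM in the WT mice and 185, 202, 162 and 174 CPM in CD25 KO mice. The genotypes did not overlap in either tissue, and thymic CD25 KO mice 2 and 4 stood above the other 3. The counts cover the whole gene, including exons outside the deleted part. *Foxp3*, the defining transcription factor of Tregs, was present in all groups, at a mean of 513 CPM in the WT mice and 307 CPM in CD25 KO Tregs of the thymus and 319.8 and 219 CPM in those of the spleen. The other Treg markers read did not all fall. Splenic means were higher in CD25 KO than in WT Tregs for *Ikzf2* (1562 against 1212 CPM), *Cd4* (689 against 553) and *Cd3e* (677 against 574). They were also higher for *Tnfrsf18* (104.6 against 94.3) and *Ctla4* (56.1 against 51.1). The thymic mean was higher for *Ikzf2* (1859 against 1366). It was lower for *Cd4* (424 against 503), *Cd3e* (490 against 662), *Tnfrsf18* (114 against 155) and *Ctla4* (53.4 against 74.0). *Rag1*, a recombinase gene of immature thymocytes, had 327 to 2037 counts per thymic WT sample and 322 to 899 per thymic CD25 KO sample, and it had 0 counts in the 8 splenic samples.

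The sequence before an annotated start is shown for *Slc1a4*, the member with the largest fold change, and for *Slc3a2*, the member with the smallest adjusted p-value in the thymus. Promoter windows of RefSeq on GRCm38.p6 were found for 6 of the 9 members. None was found for *Slc7a5*, *Slc1a5* and *Slc38a1*, which were therefore not searched for motifs. *Slc1a4* is shown from chr11:20332694-20332963 and *Slc3a2* from chr19:8713878-8714147, both on the minus strand, 5′ to 3′, with 250 bases before and 20 bases after the RefSeq start of the window. For *Slc3a2* this start lies inside the gene as GENCODE annotates it, which begins at 8723369 on this strand. Capitals mark a match to TGATGNAA, searched on both strands as the core of sites bound by ATF4, the transcription factor of the amino acid response, with C/EBP partners.

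*Slc1a4*: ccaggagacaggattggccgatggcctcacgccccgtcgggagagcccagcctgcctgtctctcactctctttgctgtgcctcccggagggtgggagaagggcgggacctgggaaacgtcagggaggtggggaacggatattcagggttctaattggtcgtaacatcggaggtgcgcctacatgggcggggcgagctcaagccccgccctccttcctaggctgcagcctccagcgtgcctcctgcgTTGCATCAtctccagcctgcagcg

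*Slc3a2*: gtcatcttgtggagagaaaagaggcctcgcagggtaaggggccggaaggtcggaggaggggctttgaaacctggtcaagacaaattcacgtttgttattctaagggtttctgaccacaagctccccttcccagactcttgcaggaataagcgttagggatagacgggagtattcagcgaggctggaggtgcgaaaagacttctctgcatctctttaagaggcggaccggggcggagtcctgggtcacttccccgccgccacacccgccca

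The match in *Slc1a4* starts 4 bases before the RefSeq start, lies on the opposite strand, and is the only one of this motif in the windows of the 6 members. The windows searched had 300 bases, of which the first 270 are shown above. Of 32851 mouse windows of 300 bases, 3.97% held the motif. CACGTG, the E-box bound by MYC and MAX, was in none of the windows of these 6 members and in 7.15% of all windows. TTCNNNGAA, the spacing bound by STAT5 downstream of IL-2, was in 1 window of *Slc7a1* and in 8.30% of all windows. The motifs were chosen with the values known, and a match is only a description of these letters.

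In the thymus, none of the 9 transporters was differentially expressed (DE) in CD25 KO against WT Tregs. DE was called at a false discovery rate (FDR) below 0.01 in the quasi-likelihood (QL) test of edgeR, with p adjusted by the Benjamini-Hochberg method over all genes tested. Of 16986 thymic genes, 6.16% were DE, 2.99% of all as lower and 3.17% as higher genes. All 9 log2 fold changes, CD25 KO over WT, were below 0, with a median of -0.22 against -0.0022 for all genes. With the trend of counts with GC content removed from each library, they stayed below 0, from -0.33 for *Slc1a4* to -0.070 for *Slc1a5*. Without adjustment, 4 of the 9 had p below 0.05, a level that 37.9% of all genes reached, and DESeq2 called 2 members, *Slc3a2* and *Slc1a5*, and 16.3% of all genes. For 3 members, *Slc3a2*, *Slc1a5* and *Slc7a1*, each CD25 KO mouse was below each WT mouse, as for 8.47% of all genes, and no member lay above WT in this way (7.88% of genes). In the spleen, 3 of the 9 were DE, against 9.45% of 17463 genes. *Slc7a5* was lower in splenic CD25 KO Tregs (3.55% of genes were DE and lower), and *Slc1a4* and *Slc38a1* were higher (5.90%). In these 3, the genotypes did not overlap in the stated direction (9.20% of genes with CD25 KO below and 11.3% with CD25 KO above WT). As the cells were measured in bulk, a change in the share of cells with a transcript and a change in the level per cell cannot be told apart.

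**Figure D1:**
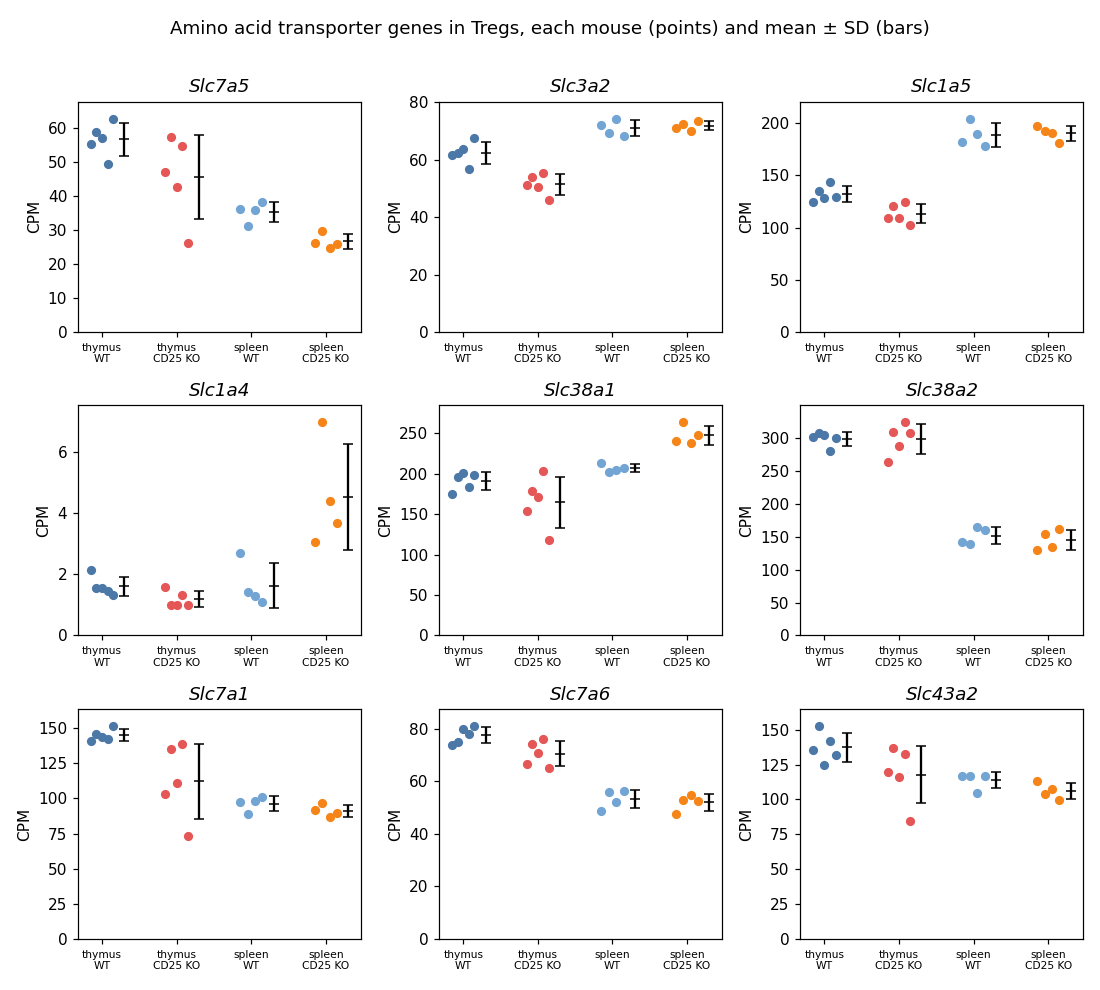
Expression of the 9 transporter genes in CPM, with 1 point per mouse and the mean ± SD beside each group (thymus n = 5 and spleen n = 4 mice per genotype, each axis from 0). Splenic *Slc1a4* and *Slc38a1* were higher and splenic *Slc7a5* lower in every CD25 KO mouse than in any WT mouse, and 1 thymic CD25 KO mouse lies low in several panels.

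*Slc7a5* (ENSMUSG00000040010.10, chromosome 8 of GRCm38 from 121881150 to 121907694, minus strand) encodes the light chain LAT1. In the spleen it had 36.2, 31.1, 35.9 and 38.3 CPM in the WT mice and 26.2, 29.8, 24.6 and 26.0 CPM in CD25 KO mice. Each CD25 KO mouse was below each WT mouse, and the log2 fold change was -0.41, with a standard error of 0.0765 and an adjusted p of 0.00159 by edgeR. In the thymus *Slc7a5* had 55.3, 59.0, 57.2, 49.4 and 62.9 CPM in the WT mice and 47.0, 57.3, 42.7, 54.8 and 26.2 CPM in CD25 KO mice. Here the genotypes overlapped, since CD25 KO mice 2 and 4 lay among the WT mice and CD25 KO mouse 5 lay far below them. The thymic log2 fold change of -0.31 (95% interval -0.67 to 0.044, adjusted p = 0.184 by edgeR) was of similar size to the splenic one, with a standard error of 0.165. In 1 fit of all 18 samples, which estimates the spread over both tissues, the splenic change was -0.41 and was no longer DE (adjusted p = 0.112 by edgeR).

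*Slc3a2* (ENSMUSG00000010095.13, chromosome 19 from 8706882 to 8723369, minus strand) encodes 4F2hc, the heavy chain that carries LAT1 and several other light chains to the surface. It had 61.8, 62.3, 63.7, 56.9 and 67.7 CPM in the WT thymus and 51.2, 53.9, 50.7, 55.5 and 46.1 CPM in the CD25 KO thymus. All 5 CD25 KO mice were below the lowest WT mouse by a small margin, and the log2 fold change of -0.28 (standard error 0.0645) just missed the threshold with an adjusted p of 0.0117 by edgeR. With the GC trend removed, this change was -0.16 (adjusted p = 0.0702 by edgeR). In the spleen, 72.2, 69.4, 74.4 and 68.2 CPM in the WT mice and 71.3, 72.5, 69.9 and 73.6 CPM in CD25 KO mice overlapped fully. The interval of the splenic log2 fold change ran from -0.090 to 0.12.

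Per kilobase of exon, the log2 ratio of *Slc7a5* to *Slc3a2* was -0.21 ± 0.049 in the WT mice and -0.29 ± 0.35 in CD25 KO mice of the thymus (SD, n = 5 each). In the spleen it was -1.08 ± 0.14 in the WT mice and -1.50 ± 0.10 in the CD25 KO mice (SD, n = 4 each), with ranges of -1.23 to -0.91 and -1.58 to -1.35, which did not overlap. The thymic CD25 KO range of -0.89 to 0.017 held the whole thymic WT range of -0.27 to -0.15. These ratios are descriptions and were not tested.

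*Slc7a6* encodes y+LAT2, a second light chain of 4F2hc, which exchanges cationic for neutral amino acids. In the thymus it ranged from 73.9 to 81.1 CPM in the WT mice and from 64.9 to 76.1 CPM in CD25 KO Tregs (log2 fold change -0.14, standard error 0.0575, adjusted p = 0.0993 by edgeR). Splenic values were 48.8 to 56.1 and 47.6 to 54.9 CPM (log2 fold change -0.036). *Slc43a2* encodes LAT4, a facilitated carrier of branched-chain amino acids and other large neutral ones that needs no heavy chain. It ranged from 124.9 to 153 CPM in the WT mice and from 84.3 to 137 CPM in CD25 KO Tregs of the thymus (log2 fold change -0.22, adjusted p = 0.168 by edgeR), and from 105 to 117 and from 99.8 to 113 CPM in the splenic genotypes (-0.10, adjusted p = 0.241). The genotypes of both genes overlapped in both tissues. An antisense gene, *Gm45606*, shares 922 bases, or 9.18% of the exonic length of *Slc43a2*, and without stated strand the reads of the shared bases are uncertain.

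*Slc1a4* (ENSMUSG00000020142.12, chromosome 11 from 20302180 to 20332713, minus strand) encodes ASCT1, a carrier of serine, alanine and other small neutral amino acids. It had 2.71, 1.42, 1.28 and 1.11 CPM in the WT mice and 3.07, 6.96, 4.40 and 3.66 CPM in CD25 KO mice of the spleen. The highest WT mouse lay just under the lowest CD25 KO mouse, and CD25 KO mouse 2 was the highest of all 18. The gene was 2.76-fold higher in CD25 KO Tregs, or 1.47 ± 0.286 on the log2 scale (± standard error, adjusted p = 0.00205 by edgeR). It was the least expressed member, yet its counts, 29 to 72 in splenic WT samples and 83 to 199 in splenic CD25 KO samples, were well above the limit of 3 counts. In the thymus it had 2.14, 1.54, 1.56, 1.46 and 1.31 CPM in the WT mice and 1.58, 1.01, 1.01, 1.31 and 0.978 CPM in CD25 KO mice. The thymic genotypes overlapped, with a log2 fold change of -0.44 (95% interval -0.88 to 0.011, adjusted p = 0.141 by edgeR).

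*Slc1a5* (ENSMUSG00000001918.17, chromosome 7 from 16781340 to 16798274, plus strand) encodes ASCT2, the related exchanger that brings in glutamine. It had 124.9, 135, 128.3, 144 and 129 CPM in the WT mice and 109, 121, 109.6, 124.5 and 102 CPM in CD25 KO mice of the thymus. The highest CD25 KO mouse lay marginally below the lowest WT mouse, and the log2 fold change was -0.22 (standard error 0.0633, adjusted p = 0.0262 by edgeR). It was -0.070 with the GC trend removed (adjusted p = 0.408 by edgeR). Splenic *Slc1a5* had 182, 205, 190.1 and 178 CPM in the WT mice and 197, 193, 191 and 181 CPM in CD25 KO mice, which overlapped, and the interval of the log2 fold change ran from -0.10 to 0.13. The 2 ASCT genes therefore differed in the splenic comparison, in which *Slc1a4* was DE and the interval of *Slc1a5* held only small changes, although the difference between the genes was not itself tested.

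*Slc38a1* (ENSMUSG00000023169.14, chromosome 15 from 96571418 to 96642913, minus strand) and its neighbour *Slc38a2* (ENSMUSG00000022462.6, from 96687392 to 96699730 on the same strand) encode SNAT1 and SNAT2, sodium-coupled carriers of glutamine and other small neutral amino acids. *Slc38a1* had 213, 202, 205 and 207 CPM in the WT mice and 241, 264, 238 and 248 CPM in CD25 KO mice of the spleen. All 4 CD25 KO mice were above all WT mice, and the difference was small, with a spread that was smaller still (log2 fold change 0.26, standard error 0.0488, adjusted p = 0.00158 by edgeR). In 1 fit of all 18 samples it was not DE (adjusted p = 0.127 by edgeR). In the thymus *Slc38a1* had 175, 196, 201, 184 and 199 CPM in the WT mice and 153, 179, 171, 203 and 118 CPM in CD25 KO mice. CD25 KO mouse 4 was the highest and CD25 KO mouse 5 the lowest of these 10 mice, and the log2 fold change of -0.21 (standard error 0.113) had an adjusted p of 0.193 by edgeR.

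*Slc38a2*, which is known to be induced when amino acids run short, differed least between the thymic genotypes. It had 302, 308, 304, 281 and 301 CPM in the WT mice and 264, 309.9, 288, 324 and 308 CPM in CD25 KO mice of the thymus. The CD25 KO mice spread to both sides of the WT mice, and the log2 fold change was -0.0017 (95% interval -0.13 to 0.13), a value whose sign changed with upper-quartile normalization (0.034). Splenic values were 139 to 165 CPM in the WT mice and 130.4 to 162 CPM in CD25 KO Tregs (log2 fold change -0.063, adjusted p = 0.619 by edgeR).

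*Slc7a1* (ENSMUSG00000041313.14, chromosome 5 from 148327410 to 148399904, minus strand) encodes CAT1, the carrier of arginine and lysine. It had 141, 146, 144, 142 and 152 CPM in the WT mice and 103, 135, 111, 139 and 72.9 CPM in CD25 KO mice of the thymus. The WT mice were close together and all above the CD25 KO mice, which were spread over a wide range, and the log2 fold change of -0.37 (standard error 0.136) had an adjusted p of 0.0679 by edgeR. In the spleen it had 97.6, 89.0, 97.8 and 101 CPM in the WT mice and 91.6, 96.4, 86.8 and 89.4 CPM in CD25 KO mice (log2 fold change -0.081, adjusted p = 0.343 by edgeR), and the genotypes overlapped.

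**Figure D2:**
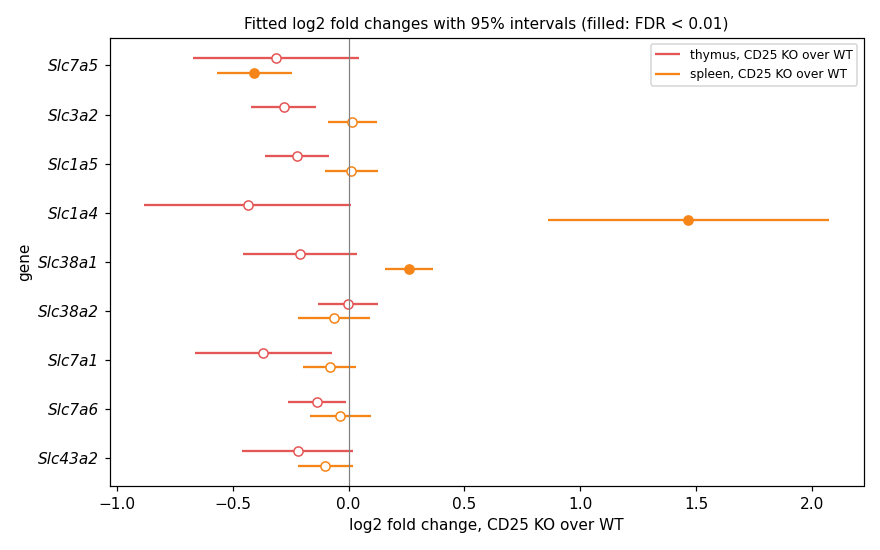
Log2 fold change, CD25 KO over WT, of each gene in the thymus and the spleen, with 95% intervals from the edgeR QL fit and filled points for FDR below 0.01. The thymic values all lie at or left of 0, from -0.44 to -0.0017, and the 3 filled points are splenic, *Slc7a5* at -0.41, *Slc38a1* at 0.26 and *Slc1a4* at 1.47.

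The thymic CD25 KO mice differed among themselves in these genes. CD25 KO mice 2 and 4, the pair with the higher *Il2ra* level, were the 2 highest CD25 KO mice for 8 of the 9 transporters, the exception being *Slc1a4*. The median over the members of the log2 ratio to the WT mean was -0.094 and -0.050 in these mice, and -0.27, -0.27 and -0.69 in CD25 KO mice 1, 3 and 5. Mouse 5 was the lowest CD25 KO mouse for 8 of the 9, with *Slc7a5* at 46.1% and *Slc7a1* at 50.3% of the WT mean, and the exception was *Slc38a2*. The coefficient of variation of *Slc7a5* was 27.1% in CD25 KO against 8.74% in WT mice of the thymus, and that of *Slc7a1* 23.8% against 2.84%.

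**Figure D3:**
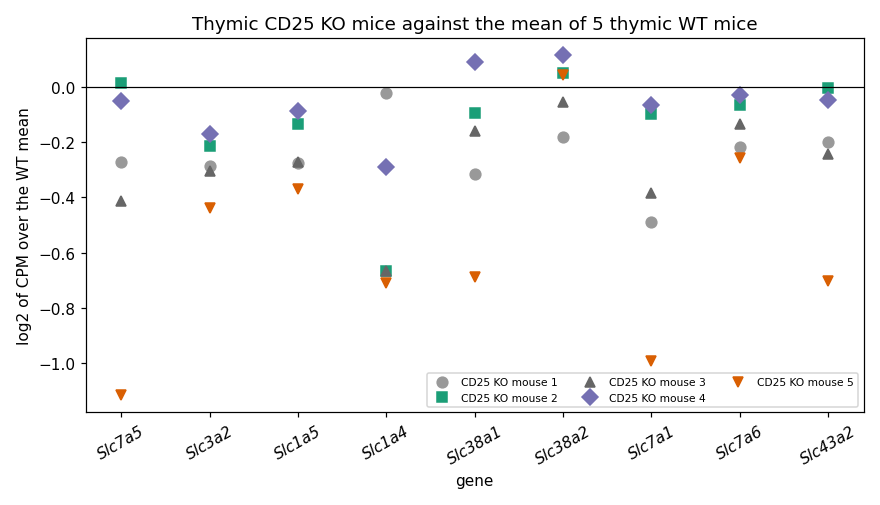
Log2 ratio of the CPM in each thymic CD25 KO mouse to the mean of the 5 thymic WT mice, with 1 symbol per mouse. Mice 2 and 4 lie nearest to the line at 0 for most genes, and mouse 5 lies lowest, down to -1.12 for *Slc7a5*.

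The composition of the libraries moved in the same mice. The long noncoding RNA *Gm26917* took 9.17% and 8.75% of the counts in CD25 KO mice 2 and 4, 6.92%, 7.37% and 5.76% in mice 1, 3 and 5, and 9.79% to 11.4% in thymic WT mice. Mouse 5 also had the highest share of mitochondrial counts of the thymic mice (1.10%, against 0.709% to 0.930% in the others) and took part in the lowest correlation between replicates (r = 0.970, with mouse 4). Markers of dividing cells differed as well. The summed level of 10 cell-cycle markers was 655, 695, 1309, 542 and 698 CPM in thymic WT mice and 247, 1124, 248, 899 and 171 CPM in thymic CD25 KO mice 1 to 5. CD25 KO mice 2 and 4 were thus within the WT range, and the other 3 were below it. None of the 10 markers was DE in the thymus. The summed level of 6 markers of immature or CD8 thymocytes was 75.6, 57.2, 65.2, 177 and 40.8 CPM in thymic WT mice 1 to 5. It was 64.9, 55.5, 47.0, 68.3 and 102 CPM in thymic CD25 KO mice 1 to 5. The part of these cells and of library composition in the transporter values was not tested. Since CD25 KO mice 2 and 4 were the highest for most members, leaving them out lowers the CD25 KO means by construction. Without them, 3 members were DE and lower in the thymus, *Slc3a2* (log2 fold change -0.34), *Slc1a5* (-0.30) and *Slc7a1* (-0.60, adjusted p = 0.00364 by edgeR), while 2008 genes in all, or 11.5%, were DE. *Slc7a5* had a log2 fold change of -0.56 in that fit (adjusted p = 0.0238 by edgeR).

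In the spleen, the cell-cycle markers summed to 152 to 175 CPM in the WT mice and to 267 to 366 CPM in CD25 KO Tregs. Of the 10 markers, 9 were DE and higher, against 5.90% of all genes. The summed level of 4 NK cell markers was 4.55 to 7.78 CPM in the WT mice and 10.6 to 15.7 CPM in CD25 KO Tregs, in which *Klrb1c* was DE and higher, and *Ncr1* and *Klra8* had 0 counts in all splenic samples. The B cell gene *Pax5* and the myeloid gene *Lyz2* were also DE and higher in splenic CD25 KO Tregs, from 1.50 ± 0.516 to 3.11 ± 0.362 and from 5.98 ± 2.27 to 12.3 ± 1.61 CPM (SD, n = 4 each). The summed B cell markers were 20.05 to 21.7 CPM in the WT mice and 19.5 to 23.2 CPM in CD25 KO Tregs. The summed myeloid and dendritic cell markers were 18.6 to 24.8 and 23.4 to 30.5 CPM. *Gm26917* took 11.9% to 14.3% of the counts in splenic WT and 9.38% to 10.9% in splenic CD25 KO samples. The part of these cells, of cell division and of library composition in the splenic changes of *Slc7a5*, *Slc1a4* and *Slc38a1* was not tested.

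The effect of CD25 deficiency was then compared between the tissues in 1 fit of all 18 samples, as the difference of the log2 fold changes, spleen minus thymus. Of the 9 members, *Slc1a4* alone was DE, against 6.98% of 18686 genes (4.50% higher), with a difference of 1.92 (standard error 0.390, adjusted p = 0.00247 by edgeR). *Slc3a2* (difference 0.31, adjusted p = 0.0138), *Slc38a1* (0.49, adjusted p = 0.0199) and *Slc1a5* (0.25, adjusted p = 0.0465) missed the threshold in this edgeR fit. For *Slc7a5* the difference of -0.077 had a 95% interval of -0.51 to 0.36. It was thus DE in one tissue without a detectable difference between the tissues. Without thymic CD25 KO mice 2 and 4, 5 members were DE in this comparison, namely *Slc3a2*, *Slc1a5*, *Slc1a4*, *Slc38a1* (0.64) and *Slc7a1* (0.52), among 2307 genes (12.2%), with the same limit.

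Levels in WT Tregs were set side by side per kilobase of exonic length, which allows genes to be compared. In thymic WT Tregs *Slc38a2* (33.2 ± 1.42 CPM per kilobase) and *Slc1a5* (31.0 ± 1.78) were the highest and overlapped (SD, n = 5). They were followed by *Slc3a2* (17.4), *Slc7a6* (16.6), *Slc7a5* (15.01), *Slc43a2* (13.4) and *Slc7a1* (12.3), in which each neighbour overlapped the next, and then by *Slc38a1* (10.8) and *Slc1a4* (0.399), which did not overlap their neighbours. In splenic WT Tregs *Slc1a5* led with 46.7 ± 2.90 CPM per kilobase, ahead of *Slc3a2* with 20.8 ± 0.836 and *Slc38a2* with 17.7 ± 1.51 (SD, n = 4), and none of these 3 overlapped. *Slc38a1* (12.4), *Slc7a6* (12.0) and *Slc43a2* (11.7) overlapped in turn, *Slc7a5* (9.85) overlapped *Slc7a1* (8.63), and *Slc1a4* (0.428) was again the lowest. The annotated exons of *Slc38a1* span 17236 bases and those of *Slc7a1* 11530 bases, which lowers their value per kilobase.

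The order also shifted in CD25 KO Tregs. In the spleen, *Slc38a1* rose to 14.8 ± 0.682 CPM per kilobase and no longer overlapped *Slc7a6* at 11.7 ± 0.726 (SD, n = 4 each), while *Slc7a5* at 7.42 ± 0.613 came to lie below *Slc7a1* at 8.15 ± 0.355, with which it overlapped. In the thymus the 9 levels summed to 150.2 ± 4.82 in the WT mice and 130.4 ± 13.5 in the CD25 KO mice (SD, n = 5 each), with ranges of 145 to 156 and 112 to 146. The splenic sums were 140.2 ± 1.91 and 139 ± 3.22 (SD, n = 4 each) and overlapped.

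Between the WT groups, 6 of the 9 members were DE, when 40.4% of all genes were (19.5% lower and 21.0% higher in the spleen). *Slc1a5* (log2 difference, spleen over thymus, 0.59) and *Slc3a2* (0.26) were higher in splenic WT Tregs, and *Slc38a2* (-0.91), *Slc7a5* (-0.61), *Slc7a1* (-0.51) and *Slc7a6* (-0.47) were lower, with adjusted p from 2.20e-09 for *Slc38a2* to 0.00173 for *Slc7a5* by edgeR. Tissue, mouse model, age, tamoxifen and the date in the column names of the count table cannot be told apart in these differences.

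**Figure D4:**
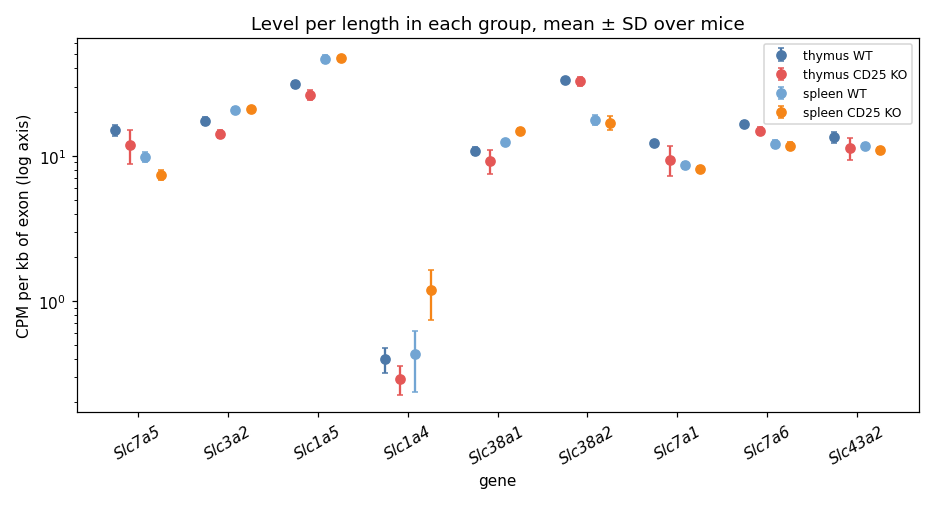
CPM per kilobase of exonic length, on a log axis, as mean ± SD over the mice of each group (n = 5 thymic and n = 4 splenic mice per genotype). *Slc1a5* was the highest gene in both splenic groups at 46.7 and 47.0, *Slc38a2* in both thymic groups at 33.2 and 32.7, and *Slc1a4* was the lowest in all 4.

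Related genes were read from lists of the same pathway. Over all genes tested, 6.16% were DE in the thymus and 9.45% in the spleen. The counts in the lists were not tested against these shares. Of the 7 Treg markers, which form a separate list, 4 were DE and lower in the thymus (2.99% of all genes). In the spleen 2 of them were lower and 3 higher (3.55% and 5.90% of all genes). Of 18 other surface amino acid transporters, 7 passed the filter on low counts in the thymus and none of these was DE (median log2 fold change -0.10). In the spleen, 6 passed, of which 2 were higher and 1 was lower in CD25 KO Tregs (median 0.20). *Slc7a10*, encoding Asc-1, a light chain of 4F2hc for small neutral amino acids, had 6.78 ± 2.99 CPM in the WT mice and 14.0 ± 2.49 CPM in CD25 KO mice of the spleen (SD, n = 4 each, log2 fold change 1.05, adjusted p = 0.00289 by edgeR). *Slc16a10*, encoding the aromatic amino acid carrier TAT1, rose from 3.58 ± 0.484 to 5.58 ± 0.713 CPM (log2 fold change 0.64), and its effect differed between the tissues (difference 1.53, adjusted p = 0.00832 by edgeR). The taurine transporter gene *Slc6a6* fell from 153 ± 5.30 to 132 ± 5.38 CPM (log2 fold change -0.22, adjusted p = 0.00629 by edgeR). All 9 carriers of lysosomes and other inner membranes on the list passed the filter, and 1 was DE and higher in each tissue. These were *Slc38a6* in the thymus (log2 fold change 0.44) and *Slc36a4* in the spleen (0.35), and the genotypes overlapped for *Slc36a4*.

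Among 22 genes of amino acid sensing by mTORC1, 2 were lower and 1 was higher in thymic CD25 KO Tregs, with a median log2 fold change of -0.062 over the list. Of all thymic genes, 2.99% were DE and lower and 3.17% higher. *Rragd*, which encodes a Rag GTPase that brings mTORC1 to the lysosome, was lower, from 17.98 ± 2.05 to 3.41 ± 0.648 CPM (SD, n = 5 each, log2 fold change -2.40, adjusted p = 1.23e-06 by edgeR). *Castor2*, of the arginine sensor family, was lower (-0.31) and *Sesn3*, of the sestrin family that restrains mTORC1, was higher (0.27). In the spleen 2 were lower and none was higher, *Rragd* with a log2 fold change of -0.74 and *Sesn1* with -0.59, and the median was -0.0080. Of all splenic genes, 3.55% were DE and lower and 5.90% higher.

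Of 15 regulators of the amino acid response and of MYC, 12 were tested. In the thymus 2 were DE and lower (2.99% of all genes). In the spleen 1 was lower and 1 higher (3.55% and 5.90% of all genes). *Myc* was lower in both tissues, by -0.96 in the thymus and by -1.02 in the spleen on the log2 scale. In thymic CD25 KO Tregs *Trib3*, a target of ATF4, was the other DE gene of the list, from 2.56 ± 0.432 to 0.793 ± 0.226 CPM (SD, n = 5 each, log2 fold change -1.68). In the spleen the partner gene *Cebpg* was higher (0.29, adjusted p = 0.00928 by edgeR). *Atf4* itself was not DE, with log2 fold changes of -0.11 in thymic and -0.040 in splenic Tregs. The list had a thymic median of -0.098 and a splenic median of -0.011.

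Of 20 enzymes that use glutamine, branched-chain amino acids or arginine, 4 were lower and 2 higher in thymic CD25 KO Tregs (median -0.25), and 2 were lower and 1 higher in splenic CD25 KO Tregs (median 0.043). Of all genes, 2.99% were DE and lower and 3.17% higher in the thymus, and 3.55% and 5.90% in the spleen. In the thymus the genes of arginine and polyamine synthesis *Ass1* (log2 fold change -1.14) and *Odc1* (-0.81) and the transaminase gene *Got1* (-0.42) had the largest decreases among the DE genes, *Glud1* was also lower, and *Arg1* (0.81) rose. In the spleen the spermidine synthase gene *Srm* (-0.68) and *Bckdhb* (-0.46), of branched-chain amino acid breakdown, were lower, and *Odc1* was higher (0.40). *Odc1* thus changed in opposite directions in the tissues, and the difference of 1.22 was DE (adjusted p = 0.000354 by edgeR).

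The genes most like each transporter were found by Pearson's *r* of log2 CPM, centred within each tissue, over the 18 samples and among some 7636 genes whose average log2 CPM was 4 or more. The points share genotype, library depth and composition, so these values are descriptions. *Slc7a5* was most like *Eef2* (r = 0.96), the gene of the translation elongation factor, *Pabpc4* (0.94) and *Tkt* (0.94). *Slc3a2* was most like *Fem1b* (0.95), *Xbp1* (0.94) and *Ass1* (0.94), and *Slc7a1* like *AI506816* (0.97), *Gatad2a* (0.96) and *Ctps* (0.96). The nearest genes to *Slc1a4* included *Nf2* (0.91) and *Prkch* (0.89), and to *Slc38a1* they were *Irf2bp2* (0.93), *Sec61a1* (0.93) and *Ptch1* (0.93). For *Slc1a5* they were *Ankrd54* (0.92), *Gm43305* (0.90) and *Asxl1* (0.90), and for *Slc43a2* *Ncf4* (0.93), *Gtf3c1* (0.92) and *Ap2a1* (0.91). The lowest values were those of *Slc7a6*, with *Baz1b* (0.85), *Ints3* (0.84) and *Psme3* (0.84), and of *Slc38a2*, with *Eif3e* (0.83), *Rpl39* (0.80) and *Zbtb11* (0.80).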

How the data were processed

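RNA-seq was performed on FACS-purified Tregs, 1 library per mouse. Reads were mapped to GRCm38 with STAR (2.5.0b) and counted per GENCODE M13 gene with featureCounts (1.5.0), per the submitters' notes and the methods. The authors deposited raw counts per gene without normalization, and no column was left out. The strand setting of the counting is not given in the sources used here.

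Gene symbols, positions and exonic lengths were taken from GENCODE M21, in which 50376 of 50600 identifiers have a symbol. Samples were grouped by the labels. Within each tissue, edgeR 4.0.16 in R 4.3.3 was run with filterByExpr, TMM normalization and the quasi-likelihood test, with Benjamini-Hochberg adjustment over all genes tested and DE called at FDR < 0.01. The difference between tissues and the WT comparison came from 1 fit of 18 samples. DESeq2 1.42.0, the tool of the study's methods, was an alternative. Other alternatives were RLE and upper-quartile normalization, no filter, at least 10 counts in every sample, FDR < 0.05, all 18 samples in 1 fit, a GC trend removed per library (natural spline with 5 degrees of freedom), the thymic mouse number as a block, each mouse left out in turn, and the 2 thymic CD25 KO mice with the highest *Il2ra* left out. CPM used the TMM scaling within a tissue, and levels per kilobase used the scaling of all 18 samples. Standard errors came from the fold change and the F statistic. The procedure was run on simulated counts, drawn with the spread that edgeR fitted to these data. They held no GC trend or shift in library composition, so the run cannot test for either. Replicates differed by more than sampling noise. Intervals of fold changes come from the fit and include the spread between mice. The 3-count limit covers counting error only, as reads carry no molecular identifiers.

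The members and the gene lists were chosen with earlier results of these data known. All 9 members and the 7 Treg markers are named. Per other list and tissue at most 3 DE genes in each direction are named, by fold change. *Myc*, *Atf4* and the 3 genes most like each member are also named. *Rag1*, *Ncr1*, *Klra8*, *Gm26917*, *Gm45606* and *Glud1* were chosen after their values were seen. A few genes that the rule covers are left out of this text.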

Additional observations from a re-analysis of the deposited data

Results flagged for a closer look

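The effect of CD25 deficiency on *Slc1a4* differed between the tissues, with a log2 fold change that was 1.92 higher in the spleen than in the thymus (adjusted p = 0.00247 in the edgeR fit of 18 samples). It was higher in 4 of 4 splenic CD25 KO mice than in any splenic WT mouse, and 5 of 5 thymic CD25 KO mice were below the thymic WT mean.

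Each of the 9 members was examined in each of the 4 groups, which gave 36 sets of 4 or 5 mice. In 2 of these sets, 1 mouse lay apart from the others. Chance alone gives about 1 in 20 such sets, a share close to the one found. *Slc38a2* had 281 CPM in thymic WT mouse 4, when the nearest thymic WT mouse had 301 CPM. *Slc43a2* had 105 CPM in splenic WT mouse 3, when the nearest splenic WT mouse had 117 CPM.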

How the results depend on the processing

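The 3 splenic calls kept their direction and stayed DE in every alternative except 1 fit of all 18 samples. In that fit *Slc1a4* remained and *Slc7a5* and *Slc38a1* did not (1 of 9 members and 795 of 18686 genes DE). That fit called 2 of 9 members and 2881 of 18686 genes in the thymus. DESeq2 called 2 of 9 members and 2763 of 16986 genes in the thymus and, for the difference between tissues, 3 of 9 members and 2188 of 18686 genes. At FDR < 0.05, 2 of 9 members and 3951 of 16986 genes were DE in the thymus, and 3001 of 17463 genes in the spleen. For the difference, 4 of 9 members and 3149 of 18686 genes were DE at that level. Without thymic CD25 KO mice 2 and 4, the thymus had 3 members among 2008 DE genes of 17433. The difference, an alternative added after the data had been seen, had 5 members among 2307 DE genes of 18972.

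Leaving out 1 mouse at a time gave 0 to 1 members and 371 to 1087 genes DE in the thymus, 1099 to 1723 genes in the spleen, and 1 to 2 members and 817 to 1489 genes for the difference. The thymic count fell below 1047 by over 1.5 times without WT mouse 2 (380), 3 (401) or 5 (428) or without CD25 KO mouse 1 (406) or 3 (371). It fell in the spleen to 1099 without WT mouse 3, and for the difference to 817 without CD25 KO mouse 2 of the spleen. *Slc3a2* became DE in the thymus (-0.31) and in the difference (0.34) without thymic WT mouse 4, and *Slc38a1* in the difference without thymic CD25 KO mouse 4 (0.56) or 5 (0.39).

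Members with a change near 0 changed sign. *Slc38a2* in the thymus was 0.0034 with RLE or DESeq2, 0.034 with upper-quartile normalization, and ran from -0.033 to 0.040 with 1 mouse left out. In the spleen, upper-quartile normalization gave -0.014 for *Slc3a2* and -0.018 for *Slc1a5*. With 1 mouse left out, splenic *Slc3a2* ran from -0.0032 to 0.038, *Slc1a5* from -0.015 to 0.053 and *Slc7a6* from -0.081 to 0.0049, the difference of *Slc7a5* from -0.22 to 0.015, and *Slc1a4* between the WT tissues from -0.25 to 0.25. Without thymic CD25 KO mice 2 and 4 the difference was 0.16 for *Slc7a5* and 0.0055 for *Slc38a2*. The causes were not tested.

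Same-numbered thymic mice did not deviate together (correlations of -0.24 to 0.14, over 0.1 for 1 of 5 numbers, with 1 of 5 WT mice closest to its own number). With the number as a block, no member and 209 genes were DE in the thymus, and also 209 with the block and the GC trend removed. The split of thymic DE genes was 539 higher and 508 lower by TMM, 808 and 440 by upper-quartile normalization, and 51 and 158 with the block. For the difference, upper-quartile normalization turned 840 higher and 465 lower into 616 and 669. The thymic log2 fold change fell with GC content over 16945 genes (Spearman's rho -0.40), and *Slc1a4*, at 18 to 43 counts per thymic sample, is the member limited most by depth.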
